A study of Mus musculus with 9 samples.

Results

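Solute carriers, the proteins of the SLC gene families that move ions, sugars, amino acids, metals and metabolites across membranes, were examined in the mouse cochlea. The members were the genes whose symbol is Slc, a number, the letter a and a number, with a mean of at least 5 TPM over the 3 homozygous libraries of the second deposited table. TPM is corrected for transcript length and for the total of the library. Of 322 such symbols among 25579 in that table, 8 were left out by name, among them the genes for prestin, pendrin and the Na-K-2Cl cotransporter of the stria vascularis, and 123 were under the level. The 191 genes that remained are described here. The level used the homozygous libraries, so the levels below are a description, and a gene just above 5 TPM can be in the set because those libraries happened to be high. The genes just inside were Slc25a18 at 5.41, Slc43a1 at 5.41 and Slc22a2 at 5.50 TPM, and those just outside were Slc1a4 at 4.81, Slc39a11 at 4.61 and Slc10a3 at 4.52 TPM.

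RNA came from the cochlear membranous labyrinth, the soft tissue inside the bony shell, of mice at postnatal day 28 and was sequenced as stranded total RNA. The 3 groups had 3 libraries each: mice wild type for Mpzl2 (WT), mice homozygous for the humanized nonsense allele hMPZL2Q74X/Q74X (homozygous), and hMPZL2Q74X/Q74X mice that received AAV-ie-ABE8eWQ-SpRY:sgRNA3 at postnatal day 2 by way of the round window membrane (treated). ABE8eWQ is an adenine base editor joined to the Cas9 variant SpRY, and AAV-ie is an adeno-associated virus capsid. The homozygous and treated groups share the allele. No group with a control vector is analysed here, so effects of vector, injection and editing cannot be told apart. The libraries are called biological replicates; the sources used here do not say whether a library is 1 animal or a pool, and p-values measure the spread between these libraries. MPZL2 encodes an adhesion protein, and variants in it are known from inherited hearing loss.

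Solute carriers use ion gradients, exchange or facilitated diffusion rather than hydrolysing ATP, and the sodium pump sets up the gradients that many of them run on. In the cochlea, potassium entering hair cells from the endolymph is taken up by supporting cells, passed to fibrocytes of the lateral wall and returned by the stria vascularis, a route on which K-Cl and Na-K-2Cl cotransporters, anion exchangers and sodium pumps act. Other carriers clear glutamate at the inner hair cell synapse, bring glucose, thiamine and amino acids from the blood, and exchange metabolites across the inner mitochondrial membrane.

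The libraries differed in ways that touch the results below. Treated replicates 1 and 2 were nearly identical: over the 191 genes their median absolute log2 ratio was 0.079, against 0.26 to 0.37 between homozygous libraries and 0.56 to 0.60 between either of them and treated replicate 3. They were therefore averaged to 1 sample, which left n = 2 treated samples. Markers of forebrain excitatory neurons, a cell type the cochlea lacks, summed to 1339, 1303 and 66.7 TPM in treated replicates 1, 2 and 3 and to 86.7 to 116 TPM in the homozygous libraries, and Neurod6 was listed at 0 in all homozygous libraries and in treated replicate 3. Oligodendrocyte markers summed to 163 to 705 TPM in homozygous and 36.4 to 93.4 TPM in treated libraries, and osteoblast markers to 184 to 633 and 40.6 to 73.7 TPM. Macrophage markers summed to 84.0 to 134 and 461 to 524 TPM, with 5 of 9 higher past the test, and 16 of 18 interferon response genes were higher. Mitochondrially encoded genes held 10.7 to 13.6% of the TPM in homozygous and 2.17 to 6.16% in treated libraries. Hair cell markers summed to between 130.3 and 443 TPM in the 6 libraries, so RNA of sensory cells was in each.

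The 191 carriers together held 0.953, 1.05 and 0.956% of all TPM in homozygous replicates 1 to 3, and 1.20, 1.18 and 1.05% in treated replicates 1 to 3. Their mean homozygous level ran from 5.41 to 607 TPM with a median of 24.5 TPM, and the middle part lay between 11.3 and 52.0 TPM. At 100 TPM or more there were 23 genes, and the 10 highest held 33.1% of the carriers' TPM. Carriers of the SLC25 family, which exchange metabolites, nucleotides and ions across the inner mitochondrial membrane, were the largest class with 40 genes and 26.4% of the carriers' TPM. Metal ion transporters followed with 23 genes and 12.4%.

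The phosphate carrier Slc25a3 was the most abundant of all at 528, 647 and 646 TPM in homozygous replicates 1 to 3. The ADP/ATP exchanger of muscle and nerve, Slc25a4, stood at 636, 504 and 585 TPM, and its relative Slc25a5 at 215, 253 and 230.3 TPM. The spread between libraries leaves the order of Slc25a3 and Slc25a4 unsettled, while every library of both was above every library of Slc25a5. The potassium-dependent sodium-calcium exchanger Slc24a2 came next at 398, 244 and 395 TPM. The sodium-coupled inositol transporter Slc5a3, which imports an organic osmolyte, stood at 260.2, 534 and 227 TPM, and the range of its libraries covered that of Slc24a2.

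Among carriers of ions in fluid homeostasis, the K-Cl cotransporter Slc12a7 stood at 264, 288 and 255 TPM and its relative Slc12a4 at 58.4, 94.3 and 66.1 TPM. Slc12a7 was above Slc12a4 in each library, and loss of Slc12a7 is known to deafen mice. The sodium-dependent bicarbonate transporter Slc4a10 stood at 237, 372 and 157 TPM and the anion exchanger Slc4a2, which swaps chloride for bicarbonate, at 97.5, 98.1 and 81.2 TPM. The choline transporter-like gene Slc44a2, whose product is an inner ear antigen, stood at 144, 246 and 182 TPM.

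Glutamate uptake was represented by Slc1a2 at 123, 137 and 137 TPM and Slc1a3 at 105, 119 and 114 TPM, the glial transporters GLT-1 and GLAST, with the neuronal transporter Slc1a1 at 9.59, 4.86 and 11.0 TPM. By these values Slc1a2 was above Slc1a3 in each homozygous library. The first deposited table gave the same libraries 106.0, 135.1 and 125.2 TPM for Slc1a2 and 106.3, 124.5 and 127.6 TPM for Slc1a3. The order of the 2 genes is therefore unsettled. The glutamine transporters Slc38a1 and Slc38a2 stood at 168 ± 40.9 and 194 ± 22.0 TPM (SD, n = 3), which do not differ beyond that spread. Slc3a2, the heavy chain shared by amino acid exchangers, stood at 202 ± 34.5 TPM (SD, n = 3), and its light chains ran from Slc7a8 at 46.9 and Slc7a5 at 45.7 TPM down to Slc7a7 at 5.82 TPM. The vesicular glutamate transporter Slc17a6 stood at 54.5, 32.6 and 69.0 TPM.

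Of the metal carriers, the zinc transporter homologue Slc30a9 was highest at 227, 221 and 210.4 TPM, followed by the magnesium transporter homologue Slc41a2 at 189.7, 253 and 156 TPM and the zinc transporter Slc39a7, which releases zinc from the endoplasmic reticulum, at 178, 199 and 168 TPM. The ranges of Slc30a9 and Slc41a2 overlapped, as did those of Slc41a2 and Slc39a7. The glucose transporter of endothelium and red cells, Slc2a1, stood at 103, 145 and 91.8 TPM and the sulfate transporter Slc13a4 at 121, 125 and 72.1 TPM. The sodium-coupled neutral amino acid transporter Slc6a15 was the highest SLC6 gene at 129, 88.3 and 141 TPM. The highest members of 3 other large classes were the monocarboxylate transporter Slc16a1 at 30.1, the lipocalin receptor Slc22a17 at 80.7 and the heme transporter Slc48a1 at 59.1 TPM.

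**Figure D1:**
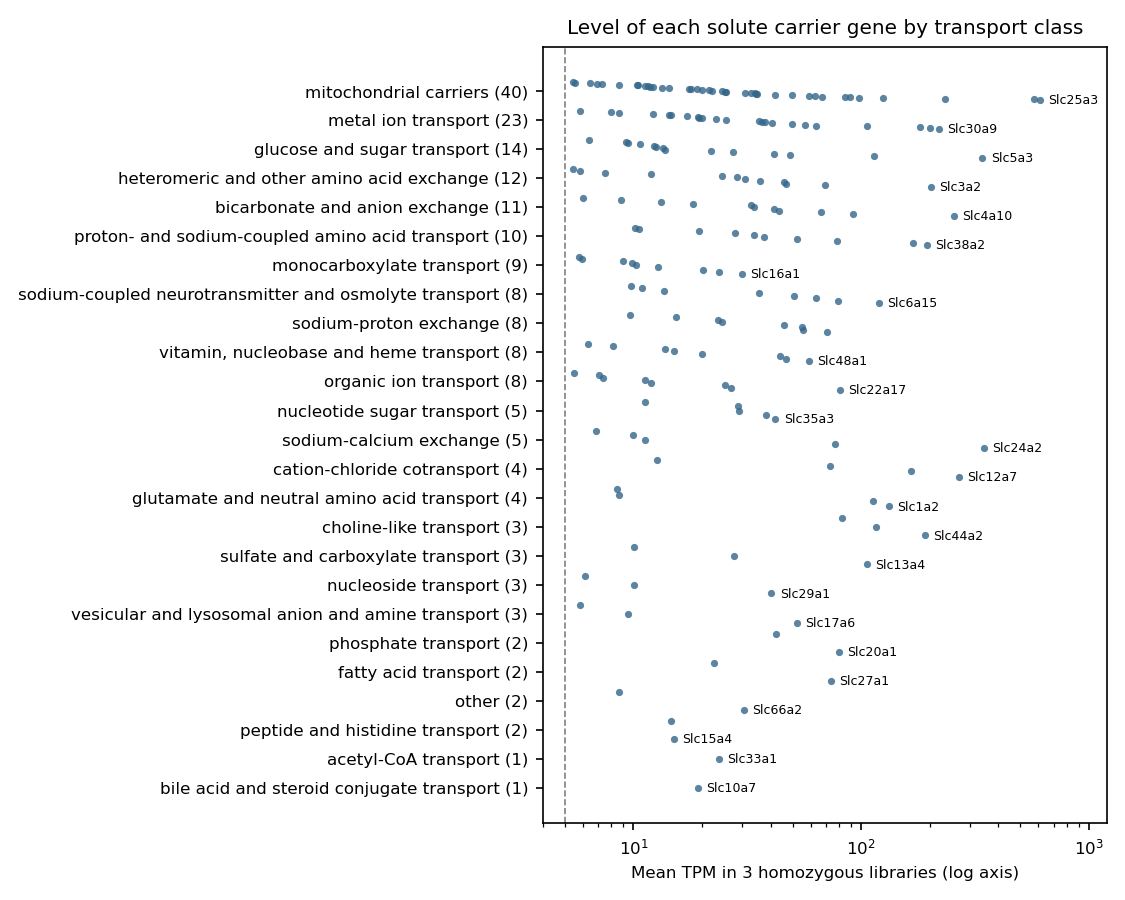
Mean TPM of each of the 191 solute carrier genes over the 3 homozygous libraries (horizontal log axis), grouped by transport class with the number of genes in brackets; each point is a gene, the highest of nearly every class is named, and the dashed line is the level of 5 TPM. Mitochondrial carriers span the scale up to Slc25a3 at 607 TPM, and 23 genes lie at 100 TPM or more.

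The coefficient of variation over the homozygous libraries had a median of 20.9%, was under 10% in 40 genes and was over 50% in 21. Homozygous replicate 2 stood apart. It was at least 2-fold above both other libraries in 10 carriers, or 5.24% of them against 1.88% of the 12631 genes at 5 TPM or more, and at least 2-fold below both in 5, or 2.62% against 1.20%. Slc5a3 at 260.2, 534 and 227 TPM, the choline transporter-like Slc44a3, named after its values were seen, at 57.9, 127 and 62.8 TPM and the citrate transporter Slc13a5 at 17.6, 49.5 and 15.7 TPM were high in replicate 2. The erythrocyte anion exchanger Slc4a1 stood at 34.8, 84.8 and 4.88 TPM. Beside these, marginal cell markers of the stria vascularis summed to 598, 1338 and 483 TPM in replicates 1 to 3. Erythroid markers summed to 493, 1553 and 146 TPM and intermediate cell markers to 617, 1185 and 507 TPM. Osteoblast markers summed to 184, 633 and 188 TPM and neutrophil markers to 145, 606 and 52.3 TPM. Spiral ganglion neuron, Schwann cell, oligodendrocyte and astrocyte markers had their lowest sums in replicate 2. Among the 5 on the low side, the GABA and taurine transporter Slc6a13 stood at 26.9, 4.28 and 9.84 TPM and the organic cation exporter Slc47a1 at 22.2, 3.00 and 8.45 TPM. Both are on the list of carriers of the meninges and choroid plexus, which did not move as one. Of its other carriers among the 191, the dicarboxylate transporter Slc13a3 was also lowest in replicate 2, at 16.0, 5.01 and 9.12 TPM, while Slc13a4 was highest there, at 121, 125 and 72.1 TPM. The list summed to 232, 151 and 112 TPM and choroid plexus markers to 36.9, 48.0 and 55.2 TPM. The part of these cell type markers in the spread was not tested. In bulk tissue, fewer cells of a type and less RNA per cell cannot be told apart.

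The first comparison asked how the carriers differed between treated and untreated homozygous mice. All 191 passed the filter on low values and were tested with limma on log2(TPM + 1), and fold changes are on that scale. With an adjusted p under 0.05 (Benjamini-Hochberg over the 17102 tested genes), 6 were higher and 2 lower in treated than in homozygous libraries. That is 3.14% and 1.05% of the carriers, against 3.44% and 0.965% of all tested genes and 3.07% and 1.25% of tested genes at 5 TPM or more, so the carriers were called about as often as other genes of that level. Their median log2 difference was 0.24, beside 0.20 over all tested genes and 0.13 over genes at 5 TPM or more. The libraries did not overlap in 46 higher and 29 lower carriers, which is 24.1% and 15.2% against 27.4% and 17% of genes at 5 TPM or more. Without an adjustment, 44 carriers had limma p under 0.05, 27 higher and 17 lower. No share of all tested genes at that threshold is given, here or for the fits below. These unadjusted counts therefore cannot be set against other genes and are no result about the carriers.

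These counts rest on how the treated libraries enter. With each treated library as a sample of its own, 21 carriers were higher and 13 lower, or 11.0% and 6.81%, against 14.9% and 5.9% of all tested genes in that fit. With the averaged pair as the only treated sample, the counts were 27 and 5, or 14.1% and 2.62%, against 13.2% and 4.3%. With treated replicate 3 as the only treated sample they were 0 and 0, against 1.05% and 0.246%, with 28 higher and 20 lower at an unadjusted p under 0.05. Both of these fits have 1 treated sample and take the spread from the homozygous libraries, so that sample is assumed to vary as they do. Without homozygous replicate 1 the counts were also 0 and 0, against 0.363% and 0.00585%, with 14 and 10 at an unadjusted p under 0.05. Without the filter on low values they were 0 and 0 as well, against 0.497% and 0.0274%, with 28 and 17. Median-of-ratios scaling moved the median of all tested genes by 0.17 on the log2 scale, to 0.021. After it 3 carriers were higher and 4 lower, or 1.57% and 2.09% against 2.36% and 1.42%, and the carriers' median was 0.06. No call reversed its direction in any of these fits.

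The sodium-proton exchanger Slc9a4 had the largest difference. It stood at 6.02, 6.33 and 16.8 TPM in homozygous and 71.4, 71.4 and 65.3 TPM in treated replicates 1 to 3, so that the lowest treated library was well above the highest homozygous one. The log2 difference was 2.84 ± 0.45 (SE; limma adjusted p = 0.0283). It was 2.90 against the averaged pair and 2.77 against treated replicate 3.

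Slc38a10, an amino acid transporter of the SLC38 family, had the smallest adjusted p. Its levels were 71.7, 96.8 and 67.2 TPM in homozygous and 249, 218 and 192 TPM in treated libraries, a log2 difference of 1.44 ± 0.22 (SE; limma adjusted p = 0.0255). Slc25a47, a mitochondrial carrier known mainly from liver, stood at 11.4, 11.5 and 11.0 TPM and 45.8, 45.5 and 30.4 TPM, a log2 difference of 1.64 ± 0.28 (SE; limma adjusted p = 0.0337). Neither gene's groups overlapped.

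Slc31a2, a copper transporter homologue of endosomes and lysosomes, stood at 31.7, 58.0 and 31.8 TPM in homozygous and 108, 117 and 117 TPM in treated libraries, a log2 difference of 1.54 ± 0.30 (SE; limma adjusted p = 0.043). The treated libraries were close to each other while homozygous replicate 2 was above its group. The plasma membrane copper importer Slc31a1, named for its relation to Slc31a2, stood at 29.5, 55.2 and 25.3 TPM and 17.3, 15.9 and 38.4 TPM, overlapping, with a log2 difference of -0.44 (limma adjusted p = 0.582).

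Both remaining higher genes carry chloride. Slc12a7 stood at 264, 288 and 255 TPM in homozygous and 517, 469 and 495 TPM in treated libraries, a log2 difference of 0.88 ± 0.16 (SE; limma adjusted p = 0.0409). Slc4a2 stood at 97.5, 98.1 and 81.2 TPM and 164, 181 and 178 TPM, a log2 difference of 0.92 ± 0.17 (SE; limma adjusted p = 0.041). In both the groups did not overlap and the treated libraries lay within a narrow band. After median-of-ratios scaling both stayed above 0 and missed the threshold, as did Slc31a2: the log2 differences were 0.68 for Slc12a7, 0.73 for Slc4a2 and 1.35 for Slc31a2 (limma adjusted p = 0.0841, 0.0809 and 0.0605).

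The 2 carriers that fell were Slc24a2 and Slc30a9. Slc24a2, abundant in neurons, stood at 398, 244 and 395 TPM in homozygous and 149, 147 and 127 TPM in treated libraries, a log2 difference of -1.29 ± 0.26 (SE; limma adjusted p = 0.047). Beside it, spiral ganglion neuron markers summed to 3295, 2052 and 3639 TPM in homozygous and 2743, 2549 and 1466 TPM in treated libraries, with 2 of 5 lower past the test and none at 0. Slc30a9 stood at 227, 221 and 210.4 TPM and 128, 108 and 111 TPM, a log2 difference of -0.93 ± 0.16 (SE; limma adjusted p = 0.0328), with tight libraries in both groups. The part of the marker changes and of the mitochondrial RNA share in the 8 calls was not tested.

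Each of the 8 calls was lost in 2 or 3 of the 6 fits that left out 1 library. Slc38a10 and Slc9a4 lost it in 2 and the other genes in 3. When treated replicate 1 or 2 was left out, the other of the pair stood in for it, so those fits change little.

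**Figure D2:**
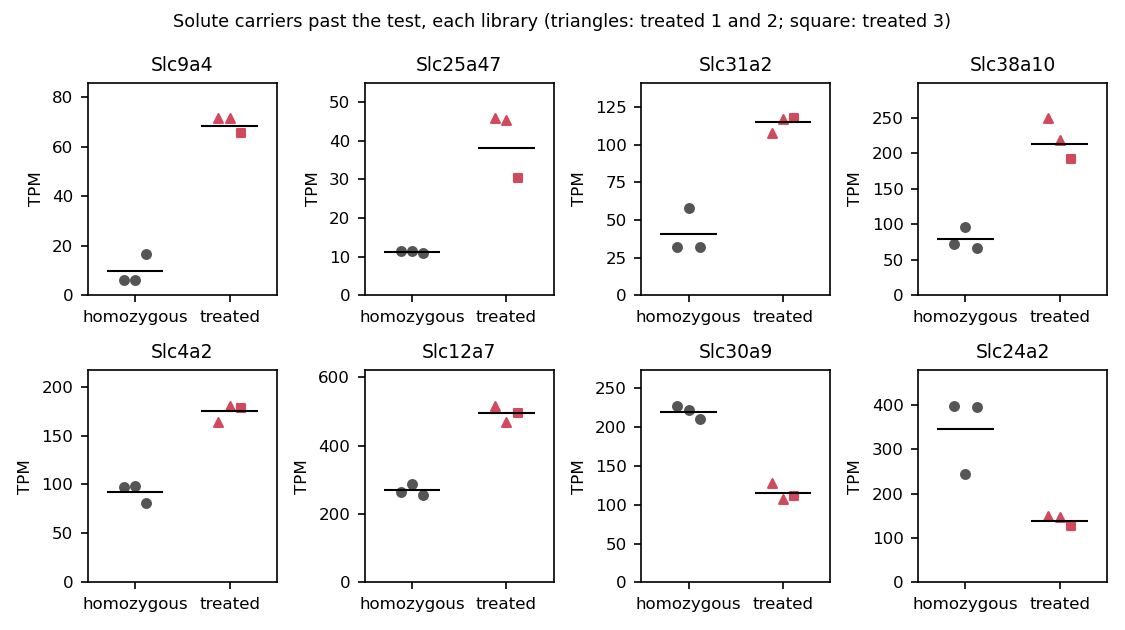
TPM in each library (vertical axes, from 0) of the 8 solute carriers past the test between homozygous (circles) and treated libraries (triangles, replicates 1 and 2; square, replicate 3); lines are group means, with the near-identical treated pair counted once. No homozygous library reaches the treated range in any of the 8, for example 16.8 TPM at most in homozygous against 65.3 TPM at least in treated libraries for Slc9a4.

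Several carriers of neurons and metabolism missed the threshold with groups that did not overlap. Slc16a1, a lactate and pyruvate transporter, stood at 35.3, 26.7 and 28.1 TPM in homozygous and 13.7, 12.5 and 11.9 TPM in treated libraries (log2 difference -1.20, limma adjusted p = 0.0532). Slc38a2 stood at 217, 174 and 190.4 and 106, 103 and 115 TPM (log2 difference -0.81, limma adjusted p = 0.0548). Slc17a6 stood at 54.5, 32.6 and 69.0 and 12.7, 12.0 and 18.6 TPM (log2 difference -1.65, limma adjusted p = 0.0568). In all 3 the treated libraries were lower. Slc6a13 had a larger difference of -3.08, with 0.791, 0.757 and 0.0826 TPM in treated libraries (limma adjusted p = 0.0618), but its homozygous libraries spread from 4.28 to 26.9 TPM. Choroid plexus markers beside it summed to 36.9 to 55.2 TPM in homozygous and 97.8 to 185 TPM in treated libraries.

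The mitochondrial carriers did not move as a block. Of the 40, 27 had a log2 difference above 0 and 13 below, beside 58.1% above 0 among tested genes at 5 TPM or more. The median was 0.27, beside 0.13 over those genes. Only Slc25a47 was called, beside 3.07% higher and 1.25% lower of those genes. The most abundant ones were lower: Slc25a4 stood at 302, 295 and 382 TPM in treated libraries with no overlap (log2 difference -0.76, limma adjusted p = 0.0801) and Slc25a3 at 432, 478 and 512 TPM (limma adjusted p = 0.327). The S-adenosylmethionine carrier Slc25a26, named after its values were seen, was on the other side at 6.83, 5.79 and 6.75 TPM in homozygous and 17.1, 17.0 and 18.2 TPM in treated libraries (log2 difference 1.32, limma adjusted p = 0.0598). Rescaling the libraries without the mitochondrially encoded genes left 3 carriers higher and 4 lower over all classes, against 2.59% and 1.2% of all tested genes.

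Carriers tied to hearing loss in human or mouse were 15 of the 191. Of the 15, 1, Slc12a7, was called higher, beside 3.07% of tested genes at 5 TPM or more. A log2 difference above 0 was seen in 7 and below 0 in 8, beside 58.1% above 0 among those genes. The groups did not overlap in 4 higher and 4 lower, beside 27.4% and 17% of those genes. Slc44a2 did not overlap, at 322, 338 and 376 TPM in treated libraries (log2 difference 0.92, limma adjusted p = 0.0821). The glial glutamate transporter Slc1a3 overlapped, at 193, 188 and 97.5 TPM (limma adjusted p = 0.584). The thiamine transporter Slc19a2 overlapped as well, at 10.04, 17.5 and 17.7 and 11.6, 11.8 and 18.9 TPM (limma adjusted p = 0.974).

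Carriers of macrophages and endolysosomes gave 8 of the 191, and the smallest adjusted p among them was that of Slc15a4. The histidine and peptide transporter of endolysosomes, Slc15a4, stood at 12.8, 16.9 and 15.4 TPM in homozygous and 23.7, 23.0 and 33.1 TPM in treated libraries (log2 difference 0.86, limma adjusted p = 0.123), and the amino acid exchanger Slc7a7 at 5.12, 4.04 and 8.29 and 9.50, 13.6 and 18.5 TPM (log2 difference 1.24, limma adjusted p = 0.126). Both were higher in every treated than in every homozygous library. Others went the other way: the lysosomal amino acid sensor Slc38a9 stood at 19.7, 15.8 and 22.8 and 12.4, 12.2 and 9.53 TPM (limma adjusted p = 0.165) and the lysosomal sialic acid exporter Slc17a5 at 9.26, 11.0 and 8.13 and 5.67, 5.32 and 7.76 TPM (limma adjusted p = 0.434), lower in every treated library. Of the 8, 6 had a log2 difference above 0 and 2 below, beside 58.1% above 0 among tested genes at 5 TPM or more. The groups did not overlap in 4 higher and 2 lower, beside 27.4% and 17% of those genes. Of the 8, 0 passed the test, beside 3.07% higher and 1.25% lower of those genes.

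Partner genes outside the SLC symbols gave 1 higher and 1 lower gene of 23 tested, beside 3.44% and 0.965% of all tested genes. Mpc2, a subunit of the mitochondrial pyruvate carrier, fell from 148, 165 and 199 TPM to 18.3, 24.7 and 30.1 TPM (log2 difference -2.69, limma adjusted p = 0.00526). Its partner subunit Mpc1 stood at 122, 112 and 173 and 65.4, 47.6 and 68.1 TPM (log2 difference -1.09, limma adjusted p = 0.0551). Mtch1, a mitochondrial outer membrane protein related to the SLC25 carriers, rose from 194, 232 and 179 to 358, 376 and 412 TPM (log2 difference 0.95, limma adjusted p = 0.044). Mtch2, on the same list, went the other way without overlap and missed the threshold. It stood at 117, 118 and 109 and 41.4, 41.6 and 83.8 TPM (log2 difference -0.95, limma adjusted p = 0.109).

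The treated libraries themselves split. In 37 carriers, 19.4% of them against 13.9% of genes at 5 TPM or more, the mean of treated replicates 1 and 2 was at least 2-fold above replicate 3. In 11, or 5.76% against 7.77%, replicate 3 was at least 2-fold above the pair. Slc24a3, Slc41a3 and Slc5a5, named in what follows, were chosen after their values were seen. The astrocytic glutamate transporter Slc1a2 had the widest gap in TPM. It stood at 1229, 1236 and 174 TPM in treated replicates 1 to 3, beside 123, 137 and 137 TPM in the homozygous libraries. Slc1a1 stood at 36.1, 35.5 and 2.12 TPM and the potassium-dependent sodium-calcium exchanger Slc24a3 at 67.0, 67.8 and 9.78 TPM. The sodium-calcium exchanger Slc8a1 stood at 52.3, 51.0 and 12.2 TPM and the neuronal glucose transporter Slc2a3 at 55.6, 61.0 and 21.3 TPM. In each of these 5 genes treated replicates 1 and 2 were above every homozygous library and replicate 3 was so in Slc1a2 and, narrowly, in Slc8a1. The forebrain marker Camk2a stood beside them at 745, 722 and 8.13 TPM. Astrocyte markers summed to 280, 253 and 141 TPM in treated replicates 1 to 3 and to 251, 131 and 248 TPM in homozygous replicates 1 to 3. Of these 5 markers, 2 had a treated minus homozygous log2 difference above 0 and 3 below. The part of the forebrain and astrocyte markers in these gaps was not tested.

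Replicate 3 was the higher one in a smaller set. The magnesium transporter homologue Slc41a3 stood at 10.6, 10.7 and 55.4 TPM and Slc41a2 at 86.4, 105 and 310.5 TPM in treated replicates 1 to 3. Slc5a3 stood at 184, 172 and 357 TPM, the ergothioneine transporter Slc22a4 at 3.78, 3.71 and 14.3 TPM and Slc13a5 at 30.5, 32.0 and 83.2 TPM. Marginal cell markers summed to 895, 874 and 1829 TPM and intermediate cell markers to 634, 635 and 1304 TPM in the same libraries. Slc41a3, Slc5a3, Slc5a5 and Slc13a5 were also among the 10 carriers high in homozygous replicate 2, the homozygous library with the highest marginal cell sum. Slc4a1 and Slc25a53, the latter named after its values were seen, were among the same 10 but went the other way. They stood at 96.7, 87.0 and 13.2 and at 8.94, 9.15 and 3.71 TPM in treated replicates 1 to 3. No share of all genes with such an overlap is given, so it is no result about the carriers. The part of these markers was not tested.

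**Figure D3:**
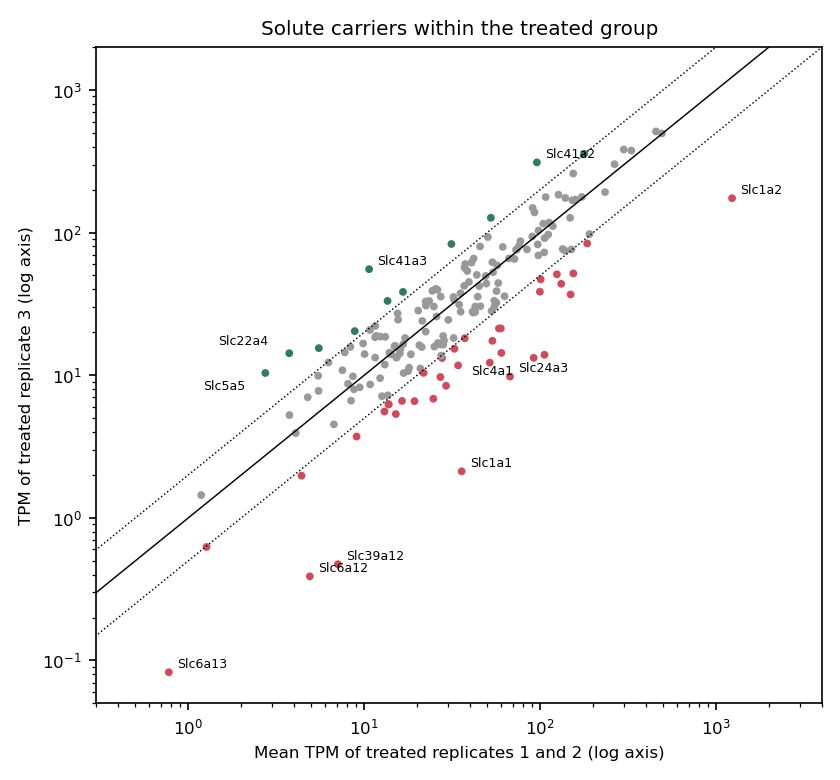
TPM of the 191 solute carriers in treated replicate 3 (vertical log axis) against the mean of treated replicates 1 and 2 (horizontal log axis); each point is a gene, the solid line is equality and the dotted lines are 2-fold. The 37 red genes, with Slc1a2 farthest to the right, are higher in the pair and the 11 green genes higher in replicate 3.

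Promoter windows of 300 bases, 250 before to 50 after the start, were taken from RefSeq on GRCm38.p6, and 146 of the 191 genes matched, with 200 windows. A window was called CpG-rich at a GC content of at least 50% and an observed over expected CpG ratio of at least 0.6. That held for 56% of the carriers' windows, beside 33.5% of all 32851 windows and 65.1% of the 12749 windows of genes at 5 TPM or more. The called genes show both kinds: Slc30a9, which fell, with 31 CpG sites, and Slc25a47, which rose, with 7. The number of sites did not go with the direction. Windows of Slc4a2, which rose, had 37 and 16 sites, and those of Slc24a2, which fell, had 17 and 3. The windows are Slc30a9 at chr5:67306705-67307004 and Slc25a47 at chr12:108850879-108851178, both on the plus strand, with each CpG in capitals:
Slc30a9: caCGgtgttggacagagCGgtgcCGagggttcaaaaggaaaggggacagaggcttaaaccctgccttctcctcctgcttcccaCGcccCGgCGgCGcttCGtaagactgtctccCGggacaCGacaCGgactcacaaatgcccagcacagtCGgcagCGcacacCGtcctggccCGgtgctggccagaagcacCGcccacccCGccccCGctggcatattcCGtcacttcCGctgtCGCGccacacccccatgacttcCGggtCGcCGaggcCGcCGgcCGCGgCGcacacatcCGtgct
Slc25a47: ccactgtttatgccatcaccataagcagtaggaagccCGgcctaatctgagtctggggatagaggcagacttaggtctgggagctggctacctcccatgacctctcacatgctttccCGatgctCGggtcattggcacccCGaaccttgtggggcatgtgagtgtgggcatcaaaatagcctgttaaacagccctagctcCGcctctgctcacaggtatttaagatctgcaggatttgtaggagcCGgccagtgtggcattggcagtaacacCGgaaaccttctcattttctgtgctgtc

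Because interferon response genes were higher in all treated libraries, the windows were searched on both strands for the core of the interferon-stimulated response element, which is GAAA, any 2 bases and GAAA again, and for the core of the gamma-activated site, TTCNNNGAA. The first was in 2.5% of the carriers' windows, beside 3.44% of all windows and 2.86% of those of genes at 5 TPM or more. The second was in 4%, beside 8.3% and 6.49%. Of the 8 called carriers, 7 had a window, Slc9a4 being the one without, and neither core was in the windows of those 7. Of the 5 carriers with the first core, Slc37a1, which exchanges glucose 6-phosphate for phosphate, and Slc25a22, the mitochondrial glutamate carrier, had the largest differences. Slc37a1 stood at 2.85, 9.91 and 6.38 TPM in homozygous and 23.2, 33.1 and 16.4 TPM in treated libraries (log2 difference 1.73, limma adjusted p = 0.0999). Slc25a22 stood at 14.9, 27.1 and 31.2 and 99.7, 99.5 and 38.5 TPM (log2 difference 1.38, limma adjusted p = 0.133), with a gap inside the treated group. Neither passed the test, and a match of letters is a description. The windows are Slc37a1 at chr17:31295974-31296273 on the plus strand and Slc25a22 at chr7:141435326-141435625 on the minus strand, with the core in capitals:
Slc37a1: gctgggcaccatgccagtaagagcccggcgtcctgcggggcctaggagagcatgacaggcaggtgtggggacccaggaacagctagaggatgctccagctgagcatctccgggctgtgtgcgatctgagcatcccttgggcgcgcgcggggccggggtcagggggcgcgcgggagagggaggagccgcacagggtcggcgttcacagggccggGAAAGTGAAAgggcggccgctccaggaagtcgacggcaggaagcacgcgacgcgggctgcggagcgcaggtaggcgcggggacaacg
Slc25a22: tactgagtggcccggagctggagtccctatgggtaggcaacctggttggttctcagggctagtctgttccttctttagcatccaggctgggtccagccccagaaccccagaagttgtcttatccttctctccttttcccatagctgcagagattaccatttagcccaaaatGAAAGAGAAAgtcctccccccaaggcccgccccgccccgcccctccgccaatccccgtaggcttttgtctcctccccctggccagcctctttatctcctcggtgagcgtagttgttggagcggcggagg

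The second comparison asked how carriers differed between homozygous and WT libraries. It rests on the first deposited table, which holds 1410 symbols chosen by a rule not given in the sources used here. The smallest absolute log2 difference among its tested genes was 0.24, so the table was taken to be selected on this contrast. Counts, adjusted p-values and calls in it, also calls kept in refits, give no independent evidence. Of the 191 carriers, 28 were in it, or 14.7% against 8.86% of the symbols at 5 TPM or more. By limma with Benjamini-Hochberg adjustment over its 1348 tested genes, 8 were higher and 4 lower in homozygous libraries. That is 28.6% and 14.3% of the 28, beside 17.9% and 33.5% of all tested genes of the table. The median log2 difference was 0.36 over the 28 and -0.36 over all tested genes. After median-of-ratios scaling, which moved the median of all its genes by 0.14, 15 were higher and 0 lower, against 35% and 15.7% of all tested genes of the table, with 16 higher and 2 lower at an unadjusted p under 0.05. None of the 12 called carriers changed direction, and the 4 lower ones stayed below 0. This scaling centres the libraries on the genes of the table, which was taken to be selected on the contrast. Calls gained or lost under it are therefore no result about the carriers.

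Slc4a10 differed most. It stood at 94.7, 63.9 and 91.1 TPM in WT and 209, 318 and 146 TPM in homozygous replicates 1 to 3, with no overlap, a log2 difference of 1.37 ± 0.28 (SE; limma adjusted p = 0.0154). It is the only one of the 12 called carriers that kept its call in all 6 fits that left out 1 library. Slc22a4 stood at 4.45, 3.57 and 4.05 TPM in WT and 9.04, 14.3 and 8.37 TPM in homozygous libraries, a log2 difference of 1.17 ± 0.24 (SE; limma adjusted p = 0.0157). Slc5a3 stood at 115, 97.6 and 119 and 205, 412 and 176 TPM, a log2 difference of 1.15 ± 0.29 (SE; limma adjusted p = 0.0266). In all 3 homozygous replicate 2 was the highest, as it was in 6 of the 8 carriers called higher, and in the 4 called lower it was the lowest. Slc22a4 lost its call in 2 of the 6 fits and Slc5a3 in 3, and the other called genes in 4 to 6.

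The other higher genes had smaller differences. The thiamine transporter Slc19a3 stood at 2.70, 2.20 and 2.50 TPM in WT and 4.49, 3.60 and 5.51 TPM in homozygous libraries (log2 difference 0.66, limma adjusted p = 0.0448), and Slc1a2 at 71.3, 110.3 and 62.4 and 106, 135 and 125 TPM with overlap (log2 difference 0.62, limma adjusted p = 0.0466). The cationic amino acid transporter Slc7a2 stood at 40.5, 48.8 and 40.7 and 59.8, 53.5 and 62.0 TPM (log2 difference 0.43, limma adjusted p = 0.0426). Among metal carriers, Slc31a2 stood at 26.2, 28.6 and 27.5 and 35.8, 57.2 and 34.0 TPM (log2 difference 0.57, limma adjusted p = 0.0495) and the zinc transporter Slc39a9 at 29.1, 34.0 and 31.1 and 39.1, 46.5 and 39.1 TPM (log2 difference 0.39, limma adjusted p = 0.0497).

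Of the lower genes, the synaptic vesicle amino acid transporter Slc6a17 stood at 165, 147 and 110.5 TPM in WT and 94.4, 62.1 and 108 TPM in homozygous libraries (log2 difference -0.69, limma adjusted p = 0.0445). The proton-coupled amino acid transporter Slc36a2 stood at 69.4, 73.2 and 68.3 and 53.3, 37.4 and 57.7 TPM (log2 difference -0.52, limma adjusted p = 0.0448) and the monocarboxylate transporter homologue Slc16a4 at 15.7, 19.1 and 17.8 and 12.4, 11.4 and 13.1 TPM (log2 difference -0.47, limma adjusted p = 0.0489). The sodium-proton exchanger Slc9a3 stood at 77.4, 72.0 and 68.5 and 68.9, 27.7 and 32.5 TPM, with homozygous replicate 1 inside the WT range (log2 difference -0.85, limma adjusted p = 0.0476). After median-of-ratios scaling the 4 genes stayed lower in value and missed the threshold, with log2 differences of -0.55 for Slc6a17, -0.38 for Slc36a2, -0.34 for Slc16a4 and -0.71 for Slc9a3 (limma adjusted p = 0.0674, 0.0872, 0.0995 and 0.0743). The limit of this scaling in a selected table, given above, holds here too.

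**Figure D4:**
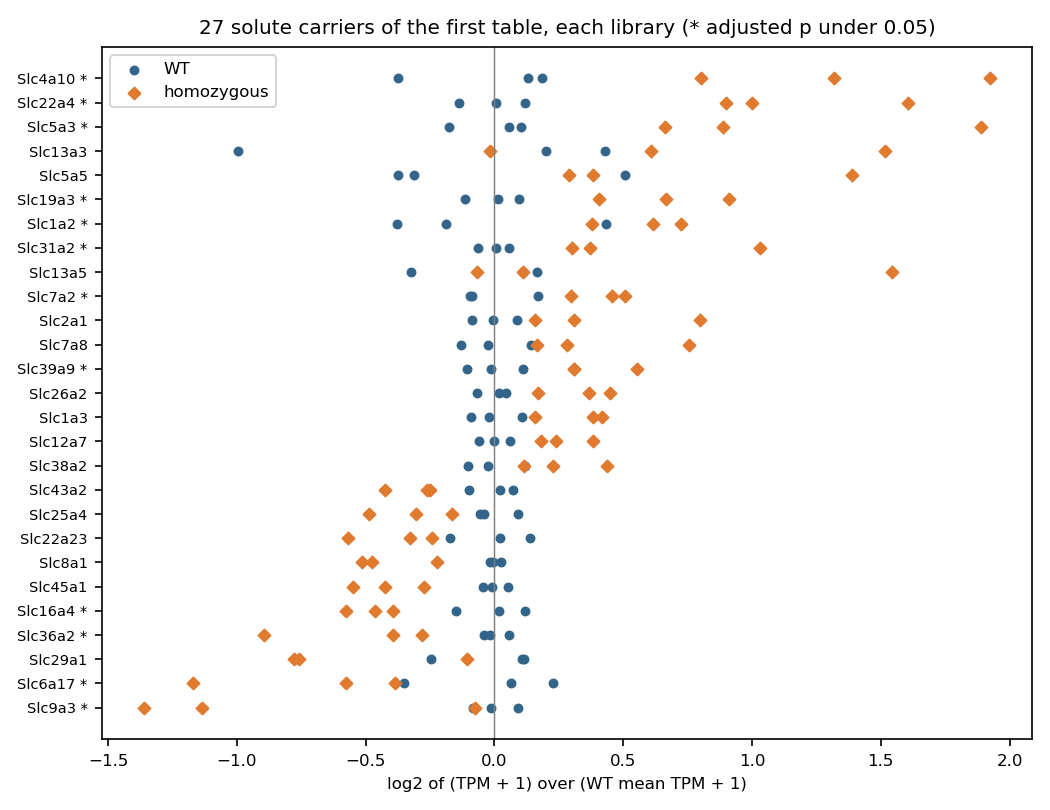
Log2 of TPM + 1 in each WT (circles) and homozygous library (diamonds) relative to the WT mean, for 27 of the 28 solute carriers of the first table (one row each); an asterisk marks an adjusted p under 0.05. Slc4a10, Slc22a4 and Slc5a3 lie farthest to the right, with 1 homozygous library beyond the other 2 in each.

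Both comparisons share the homozygous libraries, so for the genes called in the first table the treated difference is given beside it as a value only. Slc31a2 was higher in homozygous than in WT libraries by 0.57 and higher again in treated than in homozygous libraries by 1.54 on the log2 scale. Slc4a10 had 1.37 and -0.58, Slc5a3 1.15 and -0.33, and Slc22a4 1.17 and -0.56, and the treated differences of these 3 did not pass (limma adjusted p = 0.332, 0.673 and 0.552). Slc12a7, called only in the treated comparison, had 0.27 in the first table (limma adjusted p = 0.0681). No test set treated against WT libraries, because the tables gave the homozygous libraries different values, with a median ratio of 0.88 for the 28 carriers.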

How the data were processed

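The authors deposited TPM in 2 tables. The first holds 1411 rows for WT and homozygous libraries and the second 25606 rows for homozygous and treated libraries. Per the submitters' processing notes, kallisto 0.51.0 and DESeq (no version given) were used with the build GRCm39; the sources used here do not say which step made which column. Sequencing depth cannot be read from TPM, so values carry no counting interval or floor. kallisto divides reads between similar transcripts, so near-identical copies can share reads.

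Groups were read from titles, since the labels' genotype field counts upward. Repeated symbols were summed (1410 and 25579 symbols). Genes at 1 TPM or more in at least 3 libraries were tested (1348 and 17102), with limma 3.58.1 in R 4.3.3 on log2(TPM + 1), a mean per group, a variance trend, two-sided tests and Benjamini-Hochberg adjustment over all tested genes of a table, at 0.05. Fold changes on this scale understate changes of low genes. Errors are SD between samples or SE of the fit. Tests were made within a table only.

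Treated replicates 1 and 2 entered as their mean. Over genes at 1 to 5 TPM the SD of their log2 ratio was 0.71, against 1.58 to 1.81 between homozygous libraries and 2.75 to 2.79 with treated replicate 3. The SD is driven by values near 0. The median absolute log2 ratio, chosen as a further measure after the SD had been seen, was 0.077 against 0.59 to 0.74 and 1.23 to 1.24. With no counts, sampling noise could not be computed, and 2 of the 191 carriers, such as Slc19a1 at 8.34 and 41.1 TPM, differed over 2-fold between the pair.

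The carriers, gene lists, classes and tests were chosen with earlier results of these data known. Named genes are those past the test with no overlap, every carrier called in the first table, the highest of each class, the 15 most abundant, those next to the level and members of the carrier lists. Slc12a4, Slc24a3, Slc25a26, Slc25a53, Slc31a1, Slc37a1, Slc41a3, Slc44a3 and Slc5a5 fall outside these and were chosen with their values in view. A few genes that the rule takes in are not reported here. Promoters came from RefSeq (GRCm38.p6). The scripts were tested on simulated data. Alternatives tried were another pseudocount, no filter, other scalings, other minimum levels, a replicate block, leaving out each library and other ways to enter the treated pair.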

Additional observations from a re-analysis of the deposited data

How the results depend on the processing

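Between treated and homozygous libraries, 6 carriers were higher and 2 lower, with a median log2 difference of 0.24. Shares of all tested genes are given above for some of the fits in this paragraph. For the pseudocount, the replicate block and most fits that left out 1 library, none is given. Those counts cannot be set against other genes and are no result about the carriers. A pseudocount of 0.1 gave 5 and 1, and no filter on low values 0 and 0. Median-of-ratios scaling gave 3 and 4 with a median of 0.059, and rescaling without mitochondrially encoded genes 3 and 4 with 0.12. With each treated library as a sample the counts were 21 and 13, with the averaged pair alone 27 and 5, and with treated replicate 3 alone 0 and 0 with a median of 0.10. Choosing the carriers by the treated mean gave 7 and 2 of 207 with a median of 0.36. That is 3.38% and 0.966%, against 3.44% and 0.965% of all tested genes. This choice uses the treated libraries, which favours a positive difference, so its median and counts are no evidence of a rise. Leaving out 1 library gave 0 to 27 higher and 0 to 5 lower, with medians from 0.20 to 0.27; the highest counts came without treated replicate 3 and the counts of 0 without homozygous replicate 1. Between homozygous and WT libraries, 8 were higher and 4 lower with a median of 0.36. Median-of-ratios scaling gave 15 and 0 with a median of 0.50, and leaving out 1 library 1 to 6 higher and 0 to 2 lower with medians from 0.24 to 0.40. The limit of median-of-ratios scaling in a selected table was given above. The replicate block, with every library as a sample, gave 8 higher and 6 lower between treated and homozygous and 4 and 1 between homozygous and WT libraries. The labels' replicate numbers are not known to pair animals, and same-numbered libraries correlated at -0.15 to 0.049 in their deviations from the group means, so the block was not taken as a pairing. Of 232 refits of the 20 calls, 112 lost the threshold and 0 turned the direction; the cause was not tested. The small number of libraries and the unknown depth limit what could be called.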

Other observations

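The solute carriers under the level of 5 TPM are not part of the 191, but 54 of them passed the filter and 24 of these had a mean of 5 TPM or more in the treated samples. The level on the homozygous libraries therefore leaves out carriers that were high only in treated libraries. Slc11a1, a divalent metal transporter of phagosomes in macrophages, rose from 3.15, 1.83 and 2.91 TPM in the homozygous libraries to 86.6, 84.9 and 32.1 TPM in the treated libraries, a log2 difference of 3.90 ± 0.48 (SE; limma adjusted p = 0.0165). That is the only call among the 54, beside 3.44% of all tested genes called higher. The 54 were chosen for low homozygous values, which favours a positive difference in this comparison. Some, Slc15a3 among them, reached 1 TPM in 3 libraries only with the treated libraries counted. Counts among the 54 therefore give no evidence of a rise. Slc15a3, a peptide transporter of lysosomes, stood at 1.76, 0.969 and 0.894 TPM in homozygous and 4.27, 4.77 and 8.19 TPM in treated libraries (log2 difference 1.71, limma adjusted p = 0.0721). Macrophage markers were higher in the same libraries, as given above, and their part was not tested.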
